A study of Mus musculus with 4 samples.

Results

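The regions described here are 496 strong promoters of mouse mesenchymal stem cells (MSCs) at which the ATAC-seq signal in normoxia was at least 0.8 times that in hypoxia. ATAC-seq marks open chromatin through the insertions of the Tn5 transposase. The peaks were selected on the deposited values themselves. Among autosomal peaks no farther than 1 kb from where a protein-coding transcript starts (GENCODE M21, basic set), a peak was kept when the mean of its 4 library values was at least 30 and the ratio of the normoxia mean to the hypoxia mean was at least 0.8. Of 128055 peaks, 16371 were promoter peaks, 15671 of these were autosomal, and 11336 had a mean value of at least 30. The 496 retained promoters were 4.38% of these strong promoters and carried start sites of 530 genes. A value is the number of reads in a peak per 10000000 reads of the library and was not divided by peak width. Since the ratio chose the members, its size in them is a description without a test.

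The 2 hypoxia libraries came from MSCs kept at 2% O2 and the 2 normoxia libraries from MSCs kept at 21% O2, all at 5% CO2. The cells came from C57BL/6 N mice of 3 to 5 months with no transgene or treatment named in the labels, and are labelled bone-marrow MSCs. According to the study's methods the mice were male, and the cells were grown out of bone fragments of the hind limbs. They were sorted on day 12 as CD45-/Ter-119-/Sca-1+/CD140a+ cells, then divided between the oxygen levels and cultured there for several days. They are therefore cultured cells and not cells taken directly from marrow. The promoters bear the label out in part. Of 9 MSC marker genes, 8 had a promoter peak, with Pdgfra (CD140a) at a mean of 249, and Lepr had none. Among blood genes, Csf1r and Tal1 had one, while Ptprc, which encodes CD45, had none. None of the marker genes was a retained promoter.

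A promoter is the stretch of DNA around a transcription start where polymerase and general factors assemble. In mammals most promoters of broadly used genes lie in CpG islands, which keep the dinucleotide CG at a high frequency and are open in nearly all cells. Promoters of tissue-restricted genes more often lack an island, and their openness follows the factors present in each cell type. Retained promoters were therefore described by gene, by width, by CG content and by the function of their genes, each set beside other strong promoters of equal mean value.

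To show the range of sequence among retained promoters, 4 windows are given from 250 bases before to 50 bases from the start site on (GRCm38, the build of the files, 5′ to 3′ on the strand of the gene, with each CG in capitals). They are the lowest and the highest in CG content among the most retained and the strongest members. The first lies at chr1:26687411-26687710 on the minus strand, the next at chr1:88226781-88227080 on the plus strand, the one after at chr11:3193358-3193657 on the minus strand and the last at chr12:54695848-54696147 on the minus strand.
4931408C20Rik: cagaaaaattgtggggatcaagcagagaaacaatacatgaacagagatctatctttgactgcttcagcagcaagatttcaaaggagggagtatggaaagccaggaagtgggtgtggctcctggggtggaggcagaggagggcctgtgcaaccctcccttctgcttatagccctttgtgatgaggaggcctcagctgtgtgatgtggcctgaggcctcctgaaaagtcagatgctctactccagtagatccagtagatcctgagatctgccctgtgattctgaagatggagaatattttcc
Mroh2a: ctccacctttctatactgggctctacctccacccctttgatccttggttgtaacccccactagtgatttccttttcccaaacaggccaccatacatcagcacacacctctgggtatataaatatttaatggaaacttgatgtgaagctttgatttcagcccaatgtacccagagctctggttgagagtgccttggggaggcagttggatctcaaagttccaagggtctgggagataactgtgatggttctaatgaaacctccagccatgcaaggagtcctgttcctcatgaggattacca
Sfi1: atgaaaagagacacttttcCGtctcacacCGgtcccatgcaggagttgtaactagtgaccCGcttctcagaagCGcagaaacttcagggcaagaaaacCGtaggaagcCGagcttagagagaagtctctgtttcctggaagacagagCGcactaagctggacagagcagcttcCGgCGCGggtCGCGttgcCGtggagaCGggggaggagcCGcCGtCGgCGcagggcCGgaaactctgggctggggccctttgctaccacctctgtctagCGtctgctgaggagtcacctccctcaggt
Eapp: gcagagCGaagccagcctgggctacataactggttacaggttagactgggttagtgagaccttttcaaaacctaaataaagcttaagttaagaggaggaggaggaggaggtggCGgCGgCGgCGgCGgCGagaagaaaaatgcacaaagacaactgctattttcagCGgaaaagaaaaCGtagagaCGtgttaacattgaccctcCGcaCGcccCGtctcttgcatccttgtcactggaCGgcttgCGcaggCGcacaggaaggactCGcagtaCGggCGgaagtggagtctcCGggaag
The windows of 4931408C20Rik and Mroh2a held 0 CG dinucleotides. Those of Sfi1 and Eapp held 20 each, with CpG ratios of 0.769 and 0.947. The CpG ratio is the number of CG dinucleotides over the number expected from the C and G content.

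On values as deposited, which are scaled by library total, retention was mostly a smaller loss rather than a gain. The median ratio of normoxia to hypoxia was 0.862 in the 496 retained promoters (quartiles 0.825 and 0.940) and 0.578 in all 11336 strong promoters. In 320 members (64.5%) the ratio lay between 0.8 and 0.9, in 99 between 0.9 and 1, and in 77 (15.5%) at 1 or above. Median values of retained promoters were 46.7 and 46.9 for the hypoxia libraries, and 39.7 and 45.1 for the normoxia libraries. Over all strong promoters these medians were 123 and 127, and 67.1 and 78.1. Together the retained promoters held 1.97% and 1.86% of the strong promoter signal under hypoxia, and 3.47% and 3.10% under normoxia. Loss or gain depended on the scaling. With scaling by relative log expression (RLE), the members' median log2 fold change was 0.26 and that of all strong promoters -0.31.

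**Figure D1:**
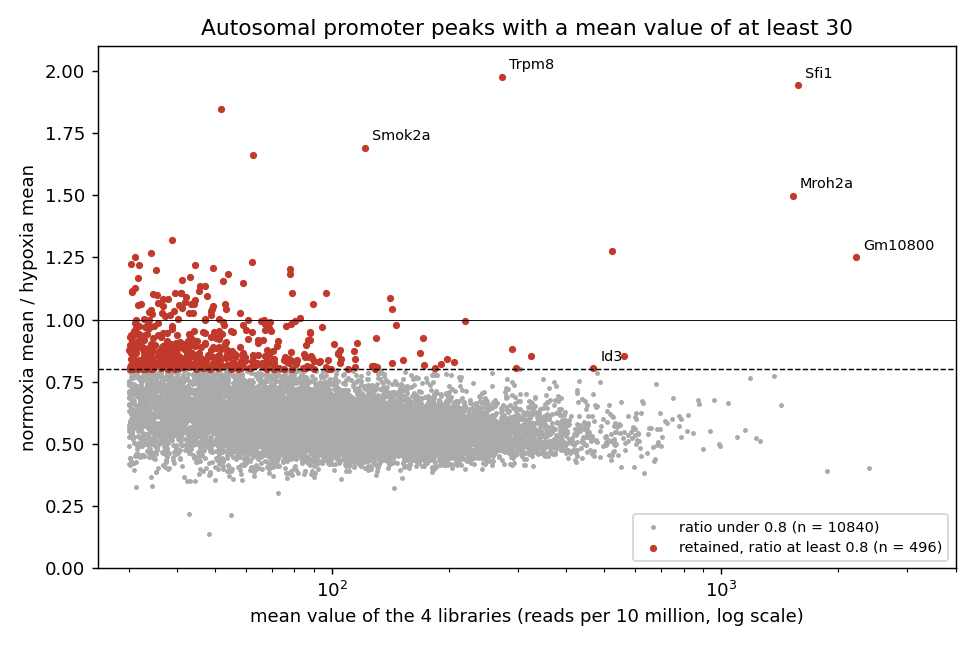
Each point is 1 of the 11336 strong autosomal promoter peaks, with its mean value over the 4 libraries (reads per 10000000, log scale) against its ratio of the normoxia mean to the hypoxia mean. The dashed line is the ratio of 0.8 that selected the 496 members (red), most of which lie at mean values under 60 and just above the line, while Sfi1 and Gm10800 stand far from both edges.

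The libraries were compared before single promoters. Both normoxia values lay above both hypoxia values in 23 of the 496 members, where the share over all strong promoters was 0.203%. Such an order gives a ratio over 1 and therefore makes a promoter a member, so nothing is read from the count. Both normoxia values lay below both hypoxia values in 247 members (49.8%), against 97.5% of strong promoters, and the groups overlapped in the other 226. All 4 ratios between single libraries were at least 0.8 in 162 members (32.7%), and the lowest of the 4 was under 0.7 in 76. The members' median ratio was 0.843 for normoxia 1 over hypoxia 1 and 0.914 for normoxia 2 over hypoxia 2. Membership of promoters near the edge therefore depended on which library was read. The members rested on a median of 132 and 138 recovered reads in hypoxia and 106 and 135 in normoxia, and on at least 49 in any library. Bins of the caller may count a read more than once, so distinct reads may be fewer.

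To read the ratio in libraries that the choice had not used, the rule was applied to 1 hypoxia and 1 normoxia library, and the ratio was taken from the other two. Of 11275 strong promoters by the libraries numbered 1, 454 were chosen. Their median log2 ratio in the libraries numbered 2 was -0.31, against -0.72 over all 11275. The ratio reached 0.8 again in 51.1% of the chosen promoters and in 7.86% of all. In the reverse direction 904 were chosen, with a median log2 ratio of -0.49 in the libraries numbered 1 against -0.88 over all, and 27.0% against 4.29% reached 0.8. The chosen promoters thus stayed above the median of all strong promoters in the libraries not used, by 0.40 and 0.38 on the log2 scale. A part of each choice was lost. This comparison was not made at equal mean value. Over the 4 libraries the median ratio was 0.661 in the lowest decile of mean value and 0.578 over all strong promoters. How much of the difference goes with mean value was not tested. With 1 library per group on each side there is no test.

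The largest ratios were found at a few loci. Trpm8, which encodes the cold-sensing cation channel of sensory neurons, had the highest ratio. Its peak (chr1:88294201-88311000, 16800 bp) read 211 and 155 in hypoxia and 368 and 356 in normoxia (ratio 1.98). The start site concerned is that of a transcript which begins 25.6 kb inside the gene. Sfi1, a gene for a centrin-binding centrosome protein, read 1192 and 949 in hypoxia and 2095 and 2062 in normoxia (ratio 1.94), in a 16300 bp peak of which 45.1% was repeat-masked sequence. The groups did not overlap at either locus.

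The second promoter on chromosome 1 lay close to that of Trpm8. The peak over Mroh2a and Ugt1a1 (chr1:88211301-88270400) was the widest of all members at 59100 bp. Ugt1a1 encodes the enzyme that conjugates bilirubin. The peak read 1338 and 1105 in hypoxia and 1777 and 1884 in normoxia (ratio 1.498), again without overlap. Between this peak and that of Trpm8 lay the strong promoter peak of Hjurp, which was not a member (mean 1184, ratio 0.767).

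The neighbouring Smok2a and Smok2b on chromosome 17, both sperm motility kinase genes, showed the same order. Smok2a read 106 and 74.5 in hypoxia and 138 and 167 in normoxia (ratio 1.69). Smok2b read 53.8 and 40.1 in hypoxia and 70.5 and 85.4 in normoxia (ratio 1.66). The normoxia values of both genes were all above the hypoxia values. The genes are paralogs, so reads could be split between them, although no near-identical second match of either window was found.

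The remaining promoters among the 10 highest ratios were of genes with only clone or predicted names. The promoter of 4931408C20Rik read 40.3 and 32.3 in hypoxia and 62.6 and 71.4 in normoxia (ratio 1.84). Gm10800, the member with the highest mean value (2215), read 1944 and 1995 in hypoxia and 2727 and 2196 in normoxia (ratio 1.25). Its neighbour Gm10801 on chromosome 2 read 454 and 464 in hypoxia and 653 and 519 in normoxia (ratio 1.28). At these 3 the groups did not overlap. Gm10800 and Gm10801 had values of 764 and 435 per kb of peak, far above the members' median of 14.5, and 47.4% and 53.4% of their peaks was repeat-masked. Whether repeat sequence had a part in these values was not tested. The ratios of 4930583I09Rik and A930017K11Rik were 1.32 and 1.27, on means of 38.9 and 34.2.

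**Figure D2:**
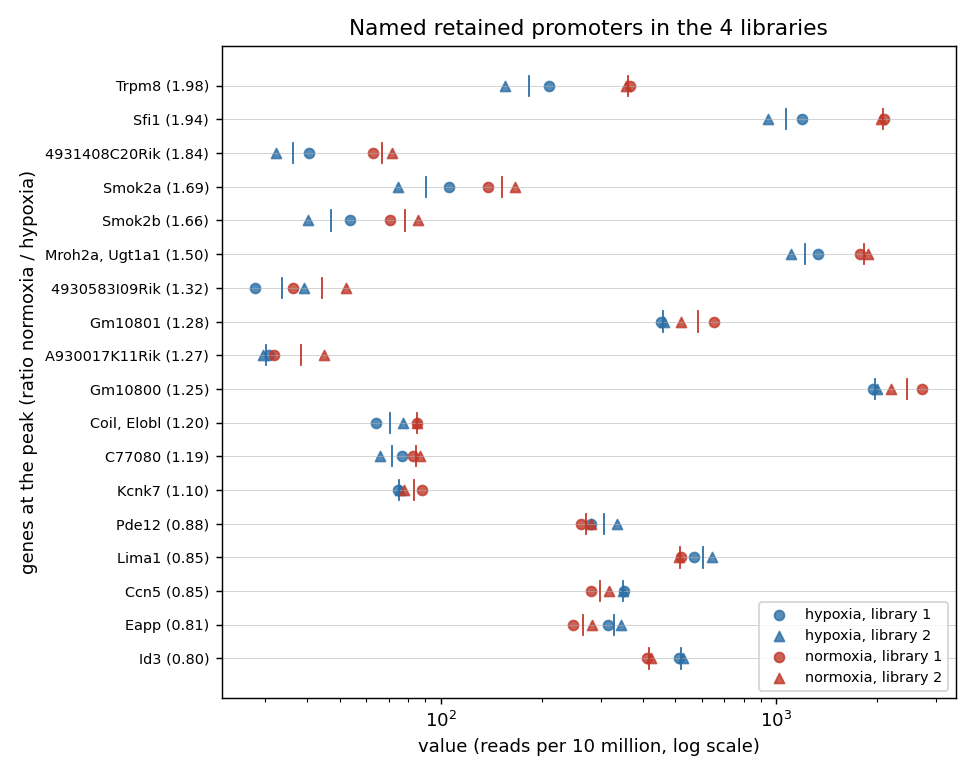
Values of named retained promoters in the 4 libraries (reads per 10000000, log scale), with hypoxia in blue, normoxia in red, symbols for the library number and vertical ticks for the group means, ordered by ratio. From Trpm8 (1.98) down to Kcnk7 (1.10) the normoxia values lie to the right, with an overlap only at 4930583I09Rik, and from Pde12 (0.88) to Id3 (0.80) they lie mostly to the left.

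The other strong members lay below a ratio of 1. Only 12 retained promoters had a mean value of at least 200. Id3, an inhibitor of basic helix-loop-helix factors and a target of BMP signalling, read 514 and 526 in hypoxia and 411 and 424 in normoxia (ratio 0.803). Lima1, which encodes an actin-binding protein, read 568 and 644 in hypoxia and 521 and 514 in normoxia (ratio 0.853), at a start site 55.3 kb inside the gene. Ccn5, a matricellular protein gene, read 352 and 349 in hypoxia and 280 and 318 in normoxia (ratio 0.853). At these 3 promoters both normoxia values as deposited were below both hypoxia values, so on that scale they are retained in the sense of the rule and not unchanged. With RLE scaling their log2 fold changes were 0.162, 0.253 and 0.246 (standard errors 0.088, 0.085 and 0.096), so the direction depended on the scaling.

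Eapp, a gene for a phosphoprotein that binds E2F factors, read 314 and 344 in hypoxia and 248 and 282 in normoxia (ratio 0.806). Pde12, a phosphodiesterase gene, read 280 and 335 in hypoxia and 263 and 280 in normoxia (ratio 0.883). The groups touched at Pde12 and did not overlap at Eapp. Cald1, the gene for the actin-binding caldesmon, read 219 and 230 in hypoxia and 195 and 178 in normoxia (ratio 0.830). The cyclin D1 gene Ccnd1 read 198 and 210 in hypoxia and 164 and 165 in normoxia (ratio 0.804).

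Further promoters with both normoxia values on top were weaker. Kcnk7, a potassium channel gene, read 74.3 and 75.8 in hypoxia and 88.1 and 77.8 in normoxia (ratio 1.10). The peak shared by Coil, which encodes coilin of Cajal bodies, and Elobl read 64.0 and 77.2 in hypoxia and 85.1 and 84.8 in normoxia (ratio 1.203). C77080 read 76.8 and 66.0 in hypoxia and 82.5 and 86.8 in normoxia (ratio 1.19), at a start site 33.5 kb inside the gene. The gap between the groups was narrower than the spread between the 2 hypoxia libraries at Coil and C77080, and than that between the 2 normoxia libraries at Kcnk7.

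Promoters lay densely on both sides of each threshold. The members with the lowest ratios were Trio (0.8001), Pias4 (0.8002) and Psmb10 (0.8003), and the nearest promoters outside were Plscr2 (0.79998), Tpm1 (0.7999) and Lingo2 (0.7998). The lowest means inside were those of Strada (30.07), Pip5k1b (30.17) and Ryr2 (30.2). Just under the mean of 30 lay Pcgf6 (29.997), Scube3 (29.94) and the peak of 1700007K13Rik and Mrps2 (29.87), all with ratios over 0.8. Ryr2 read 35.4 and 27.2 in hypoxia and 19.5 and 38.7 in normoxia, so 1 normoxia library was the lowest and the other the highest of the 4.

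Retained promoters were wider than others of the same mean value and held their reads at a lower density. Other strong promoters were weighted so that 20 bins of mean value held the same shares as in the members. The median width was then 3350 bp in retained promoters (quartiles 2100 and 5000) and 2000 bp in the others, and 2800 bp over all strong promoters. A width of at least 3 kb was found in 58.3% against 20.2%, and of at least 10 kb in 23 members (4.64%) against 0.499%. The value per kb of peak was 14.5 in retained promoters, 23.8 in others of equal mean and 32.7 over all. Width and density are tied together at equal mean, so these are the same difference seen from both sides. Set beside promoters of equal value per kb instead, retained promoters were narrower (3350 against 4000 bp). The narrowest members, Usp7, Cpsf1 and Ubxn11, had peaks of 1000 bp.

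The share of strong promoters retained followed density more closely than width. It was 27.0% (306 promoters) in the lowest decile of value per kb, 6.61% in the next and 0.265% (3 promoters) in the highest. By mean value it was 18.5% in the lowest decile and 0.882% in the highest. By width it stayed between 2.67% and 6.70% across the deciles. The density decile with the lowest values also had the highest median ratio (0.716), and the highest decile had 0.522.

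**Figure D3:**
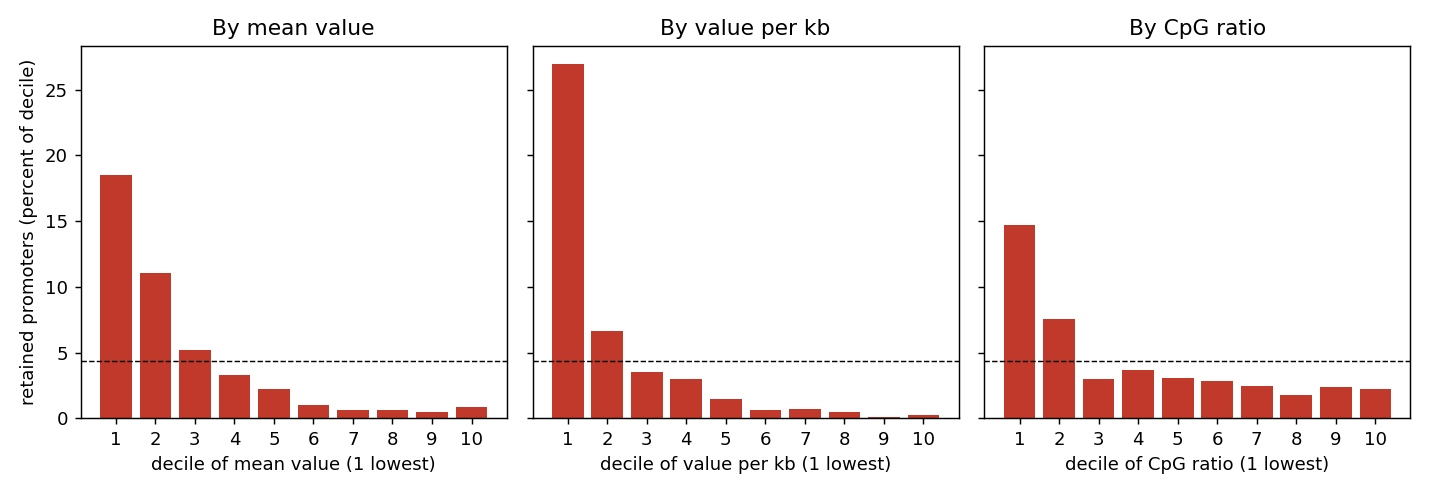
Percent of strong promoters that were retained in each decile of mean value, of value per kb of peak and of CpG ratio, with the dashed line at the share over all (4.38%). The bars fall from 18.5% and 27.0% in the lowest deciles of mean and density to under 1% in the highest, and only the first 2 deciles of CpG ratio (14.7% and 7.58%) stand above the line.

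The level between peaks moved with this result. Outside peaks the value per kb was 1.70 and 1.49 in hypoxia, and 2.66 and 2.47 for the normoxia libraries. It was taken from the reads left after those in peaks, so reads counted more than once in peaks would make it too low. Over its width, that level equals a median of 11.2% and 9.69% of a retained promoter's value in hypoxia and 20.6% and 17.9% in normoxia. Over all strong promoters it equals 4.16% and 3.51%, and 12.0% and 9.65%. After subtraction of this level from each value, a step added after seeing the data, the members' median ratio was 0.783 and that of all strong promoters 0.535. A ratio of at least 0.8 was then left at 203 of the 496 members (40.9%), and 159 of these kept a mean of at least 30. All 77 members with a ratio of 1 or more stayed above 0.8, and 39 of them stayed at 1 or more. Trpm8 (2.04), Sfi1 (1.95), Smok2a (1.71) and Mroh2a (1.489) kept ratios close to the deposited ones.

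Fewer reads also fell in nuclear peaks in normoxia, with 49.2% and 53.2% of the library total in hypoxia and 31.0% and 35.2% in normoxia, and mitochondrial peaks held 7.77% and 9.13% in hypoxia and 1.497% and 2.34% in normoxia. Library totals were between 26680936 and 29965523 reads. The ratio of 0.8 thus refers to values scaled by library total. With scaling by relative log expression (RLE), 5770 strong promoters passed the same ratio, and with library totals counted without mitochondrial peaks 279 did.

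Retained promoters had fewer CG dinucleotides at their start sites. The median CpG ratio of the 300-base window was 0.503 in retained promoters (quartiles 0.247 and 0.787), 0.719 in others of equal mean value and 0.772 over all strong promoters. The difference of -0.216 at equal mean was -0.104 without normoxia replicate 1, where 904 promoters passed the rule. The window held a median of 11 CG dinucleotides against 18 at equal mean. A CpG ratio under 0.5 was found in 49.6% of retained promoters, in 25.4% at equal mean and in 34.1% at equal value per kb. In 16 members (3.23%) the window held none, against 0.561% at equal mean. GC content alone differed less, with 58.0% in the window against 59.7%, and 53.0% against 53.1% over the whole peak.

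**Figure D4:**
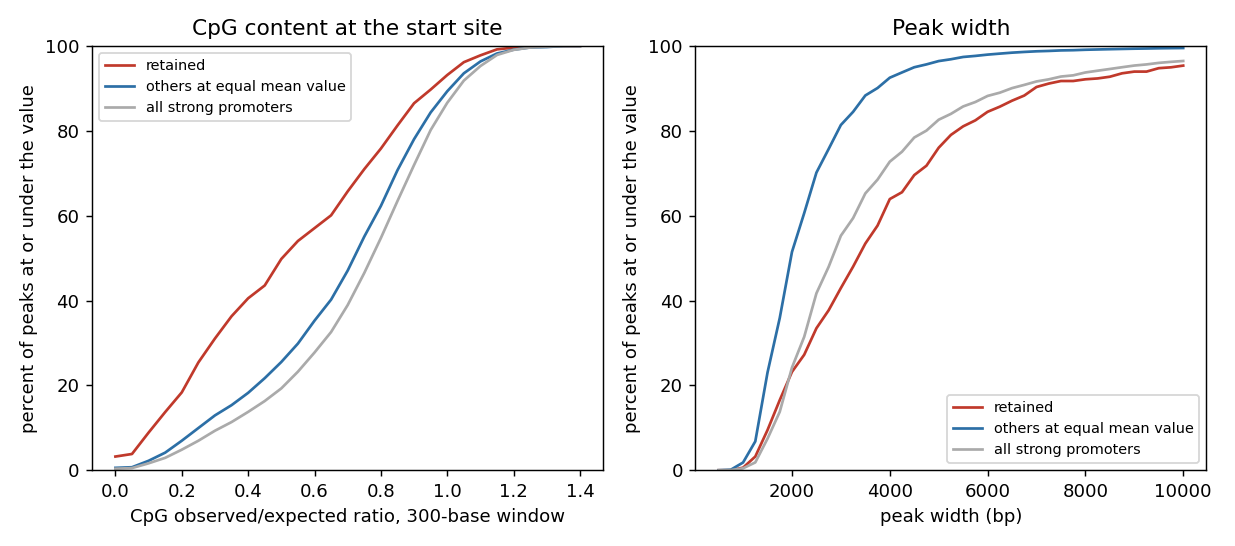
Cumulative percent of peaks at or under each CpG ratio of the start-site window (left) and each peak width in bp (right), for retained promoters (red), other strong promoters weighted to equal mean value (blue) and all strong promoters (grey). The red curve lies above the blue over most of the CpG range and below it in width, with medians of 0.503 against 0.719 and 3350 against 2000 bp.

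Density and CG content were then crossed. Strong promoters were divided by value per kb into 3 equal classes. In the lowest class, 20.1% of promoters with a CpG ratio under 0.4 were retained, 9.79% of those between 0.4 and 0.7 and 8.22% of those above. In the highest class the shares were 1.17%, 0.560% and 0.0760%, on only 3, 5 and 2 retained promoters. The share retained thus fell with CG content within each class, and it differed more between the density classes. The median ratios of all promoters did not follow that order throughout. They were 0.668, 0.635 and 0.636 in the lowest class, 0.583, 0.568 and 0.575 in the middle class, and 0.520, 0.536 and 0.539 in the highest. Mean value was not held equal within or between the classes. Its medians were 59.8, 58.5 and 64.9 in the lowest class and 132, 141 and 151 in the highest. Density was therefore not separated from mean value here. The members fell into almost equal parts on either side of a CpG ratio of 0.5. The 246 CpG-poor members had a median ratio of 0.892 with 57 (23.2%) at 1 or more. The 250 others had 0.846 with 20 at 1 or more. Median widths were close, at 3400 and 3300 bp. Of the 23 members with both normoxia values on top, 17 were CpG-poor.

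The position of the start sites was compared next. A start site lay inside the peak in 89.3% of retained promoters and 94.7% of others at equal mean. Among CpG-poor members that share was 82.1%, and among the other members 96.4%. The nearest start was within 1 kb of the outermost start of its gene in 79.6% and 83.8%. Among CpG-poor members that share was 71.1%, and among the others 88.0%. Start sites of at least 2 genes were found at 7.06% of retained promoters and 8.12% at equal mean, a difference of -1.06 percentage points that is smaller than the spread between library choices (SD 1.31). Repeat-masked sequence made up a median of 12.1% and 11.8% of the peaks. A window with a near-identical second match in the genome was found in 0.403% of members and 1.18% of others.

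Sequence motifs were searched in the same windows on both strands, and a match is a description and not a bound site. The Sp1-type box GGGCGG was in 46.4% of retained promoters, 58.0% of others at equal mean and 59.9% of all autosomal promoters. The ETS-type word CCGGAAGT was in 2.02%, 7.32% and 6.11%. The NRF1-type word GCATGCGC was in 2.02%, 4.93% and 4.17%. The word CTCGCGAG was in 0 members, against 1.19% and 1.43%. All 4 words contain a CG, and matches were not compared at equal CpG ratio. The AP-1 word TGANTCA was in 6.25%, 6.15% and 5.63%, CCAAT in 29.2%, 32.0% and 35.4%, and TATAAA in 8.87%, 7.14% and 7.38%. The HIF core ACGTG was in 21.8%, 23.2% and 23.5%, and the E-box CACGTG, which contains it, in 10.1%, 9.05% and 8.91%. The YY1-type word AAGATGGC was in 3.63%, 4.52% and 3.72%, the CREB site TGACGTCA in 2.22%, 2.95% and 3.20%, and the TEAD word GGAATG in 13.9%, 11.9% and 12.0%.

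The genes of retained promoters were then described by function. A count expected at equal mean value was taken from the share retained among all strong promoters of the same mean. No list was compared at equal value per kb, although the share retained was 27.0% in the lowest decile of that measure and 0.265% in the highest. The lists were written with earlier results known, and those for ion channels, G protein-coupled receptors, synapse and striated muscle were added after the members had been read, so their counts describe the members and support nothing.

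Striated muscle genes were the list with the largest share. Of 20 strong promoters, 10 were retained, where 1.46 would be at equal mean and 2.31 at equal mean and CpG ratio. The promoter of Ldb3, a Z-disc protein, read 143 and 125 in hypoxia and 110 and 139 in normoxia (ratio 0.928). Pygm, the muscle glycogen phosphorylase gene, read 78.2 and 83.0 in hypoxia and 77.6 and 82.8 in normoxia (ratio 0.995). Mybph, a myosin-binding protein gene, read 52.0 and 50.0 in hypoxia and 46.8 and 55.4 in normoxia (ratio 1.002). The groups overlapped at these 3. The peak of Nisch and Tnnc1, the latter the gene of cardiac troponin C, had a ratio of 0.812, with all normoxia values below. The start site nearest the centre of that peak was a Nisch start 10.2 kb inside Nisch. After subtraction of the level between peaks 5 of the 10 kept a ratio of at least 0.8.

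Ion channel genes had 18 of 67 strong promoters retained (26.9%), against 5.92 at equal mean and 5.23 at equal mean and CpG ratio. Besides Trpm8 and Kcnk7 they held Kcnh2, the cardiac potassium channel gene, which read 116 and 106 in hypoxia and 94.8 and 96.8 in normoxia (ratio 0.863). The Kcnh2 start site concerned lay 22.0 kb inside the gene. The pacemaker channel gene Hcn2 read 98.7 and 95.9 in hypoxia and 72.0 and 85.8 in normoxia (ratio 0.811). At both, the normoxia values were below the hypoxia values. Kcnc4 (1.06) and the NMDA receptor subunit gene Grin3b (1.02) had ratios over 1. With the level between peaks subtracted 7 of the 18 stayed at 0.8 or more.

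G protein-coupled receptor genes had 17 of 68 retained, against 4.07 at equal mean. Opn1sw, a cone opsin gene, read 200 and 179 in hypoxia and 158 and 152 in normoxia (ratio 0.816), at a start site 7.96 kb inside the gene. Mc1r, the melanocortin receptor of pigment cells, shared a peak with the neuronal tubulin gene Tubb3 that read 129 and 120 in hypoxia and 91.1 and 118 in normoxia (ratio 0.840). The itch receptor family member Mrgprg read 89.2 and 103 in hypoxia and 90.3 and 95.4 in normoxia (ratio 0.968), with overlap between the groups. The adrenergic receptor gene Adra2a had a ratio of 0.833. After the subtraction 5 of the 17 remained at 0.8 or more.

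Synapse and vesicle release genes had 10 of 34 retained (29.4%), against 4.34 at equal mean. Slc17a7, the vesicular glutamate transporter gene, read 55.9 and 66.3 in hypoxia and 48.3 and 49.7 in normoxia (ratio 0.803). Syngr3, a synaptic vesicle protein gene, read 37.9 and 41.1 in hypoxia and 34.5 and 41.4 in normoxia (ratio 0.960). The calcium sensor gene Doc2a read 38.9 and 25.2 in hypoxia and 40.5 and 36.4 in normoxia (ratio 1.199). The groups overlapped at Syngr3 and Doc2a, and 4 of the 10 stayed at 0.8 or more after the subtraction.

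Several lists of broadly used genes had no retained promoter, on small counts at equal mean. None of 76 cytosolic ribosomal protein promoters was retained, against 2.78 at equal mean. None of 96 promoters of RNA polymerase and general transcription factors was, against 4.23, none of 39 aminoacyl-tRNA synthetases, against 1.12, and none of 33 replication-dependent histone promoters, against 1.49. Of 317 promoters of Zfp zinc finger genes, many of which sit in clusters of DNA-binding repressor genes, 1 was retained, against 13.4 at equal mean and 15.1 at equal mean and CpG ratio. It was Zfp455, with 52.7 and 61.9 in hypoxia and 46.5 and 46.1 in normoxia (ratio 0.807). The median ratio of the Zfp promoters was 0.544.

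The other lists had retained promoters on either side of their counts at equal mean, which follow in brackets. Mitochondrial ribosomal proteins had 5 of 68 (4.10), with the peak of Nme3, Mrps34 and Eme2 the strongest (ratio 0.916). Oxidative phosphorylation subunits had 2 of 75 (3.38), namely Cyc1 and the peak of Cox4i1. Solute carriers had 9 of 192 (10.4) and ubiquitin enzymes 8 of 186 (6.99), among them Rnf10 (ratio 0.876). Homeobox and other developmental regulators had 4 of 92 (5.48), which were Tbx1, Hoxc8, Tbx5 and Sox21. Proteasome subunits had 2 of 36 (1.31), collagens, integrins and laminins 3 of 52 (2.69), splicing factors 2 of 50 (1.61), and interferon response genes 2 of 29 (1.66). Vesicle traffic genes had 2 of 155 (5.38), DNA replication and cell cycle genes 2 of 96 (3.01), and chromatin modifiers 1 of 103 (2.91), namely Tet3. DNA repair genes had 1 of 63 (2.29), chaperones 1 of 70 (1.76), centrosome and cilium genes 1 of 69 (2.09), translation initiation factors 1 of 48 (1.51), actin and contractile genes 1 of 24 (0.210) and germline genes 1 of 15 (0.642). Clustered protocadherins had 0 of 5 (0.589), olfactory and vomeronasal receptors 0 of 10 (1.14) and imprinted genes 0 of 18 (1.201).

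The lists with a bearing on bone, fat and oxygen were short, so their counts of retained promoters were small and are given beside those at equal mean. None of 31 hypoxia response promoters was retained, against 0.439 at equal mean. Of 13 osteogenic promoters 2 were, those of Spp1 (osteopontin) and Dmp1, which encode phosphoproteins of mineralised bone matrix, against 0.691. Spp1 read 43.9 and 44.5 in hypoxia and 33.7 and 38.0 in normoxia (ratio 0.812), so both normoxia values were below. Dmp1 read 38.9 and 46.2 in hypoxia and 35.2 and 38.7 in normoxia (ratio 0.868). Of 13 adipogenic promoters 1 was retained, against 0.711, that of the lipoprotein lipase gene Lpl, with 45.3 and 66.3 in hypoxia and 48.7 and 52.1 in normoxia (ratio 0.903). Of 33 immediate-early promoters 2 were retained, against 0.838. They were the peak that Dusp1 shares with Ergic1, whose start site is nearest its centre (ratio 0.824), and that of Egr4 (0.901).

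**Figure D5:**
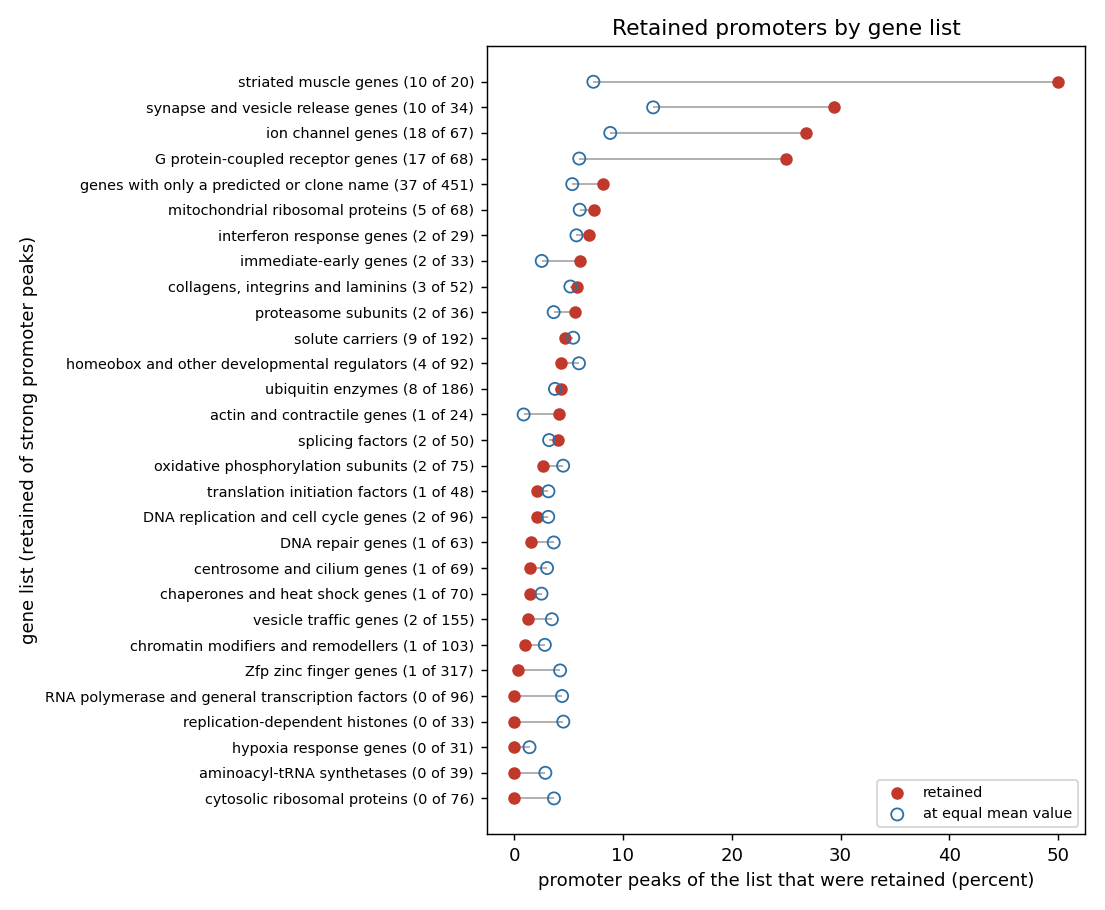
For each gene list with at least 20 strong promoter peaks, the percent retained (filled, with the counts on the axis) and the percent at equal mean value (open). The 4 lists at the top, written after the members had been read, hold 17 of 68 to 10 of 20 promoters, while Zfp zinc finger genes (1 of 317) and 5 lists with 0 retained lie at the bottom.

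Genes with only a predicted or clone name had 37 of 451 promoters retained (8.20%), against 24.1 at equal mean. The strongest after Gm10800 and Gm10801 was the peak of 4930404N11Rik and Mfsd12, with 197 and 164 in hypoxia and 155 and 158 in normoxia (ratio 0.866). Of the 37, 20 stayed at 0.8 or more after subtraction of the level between peaks, and their median ratio was then 0.801.

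The same ratio was read in peaks outside promoters. Among autosomal peaks of mean at least 30, 4888 of 24718 (19.8%) had a ratio of at least 0.8. Weighted to the mean values of the strong promoters, that share was 11.5%, and weighted to their value per kb it was 15.6%. The peaks around retained promoters differed little from those around others. Non-promoter peaks within 20 kb with a mean of at least 10 had a median log2 ratio of -0.35 around 373 retained promoters and -0.44 around others of equal mean. The share retained ranged from 1.52% of strong promoters on chromosome 18 to 6.83% on chromosome 15. On X, which the rule left out, 1 of 316 strong promoters (0.316%) had a ratio of at least 0.8.

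Last, the members were read in a fit over all peaks. With limma on log2(value + 1) after RLE scaling and an FDR under 0.01, 31 of the 496 were called higher in normoxia, where 1.77% of all 128055 peaks were called higher, and 0 were called lower, where 4.57% were. At an unadjusted p under 0.05, 157 members were higher and 0 lower, where 37599 of all 128055 peaks passed in either direction. edgeR on the recovered reads called 43 members higher and 0 lower, against 3257 and 7296 of all peaks. DESeq2 called 16 higher and 0 lower, against 121 and 3373 of all peaks. Without hypoxia replicate 1 or without hypoxia replicate 2, limma called 0 members and 0 of all peaks in either direction. The members' median log2 fold change was 0.26 on this scale, and that of all strong promoters -0.31. All 496 were positive, which the rule fixes, since a deposited ratio of 0.8 lies above no change on this scale. These calls use the same contrast as the choice, and nothing is read from them.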

How the data were processed

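ATAC-seq was measured in 4 libraries, 2 per oxygen level. Per the study's methods the authors aligned reads to mm10 with bowtie2, removed duplicates with Picard and called 1 peak set over both groups with chromstaR. The deposited value per peak is a signal that the authors call RPKM, but it is the read number per 10000000 library reads, not divided by width. Values equalled whole multiples of 1 read in 100% of peaks (tolerance 0.01 reads), which gave the library totals. Start sites came from GENCODE M21 (basic set), and sequence from the GRCm38 assembly. The members and lists were chosen with earlier results of these data known. Equal-mean values weight the other 10840 strong promoters in 20 bins of mean. Near-identical matches have at least 95% identity over 270 bases (minimap2 2.31). limma 3.58.1 (trend and robust eBayes, two-sided, Benjamini-Hochberg over all peaks, pseudocount 1) was the main fit, with edgeR 4.0.16 and DESeq2 1.42.0 on recovered reads as alternatives, all tested on simulated data. Named genes are the 10 highest ratios, the 10 highest means, the edges of both thresholds, the widest and narrowest 3, the 10 strongest with both normoxia values on top, and up to 4 per list by mean value. Of these, a selection is described. Other genes named for their list ratio were chosen after their values were seen. With 2 libraries per group an exact permutation test cannot go below p = 0.333, so none was used. The study's legends call the 2 libraries per group independent experiments, and its account of the culture has the sorted population divided between oxygen levels. Intervals were not computed, because bins of the caller may count a read more than once. Alternatives were other thresholds, scalings, pseudocounts, fits and left-out libraries.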

Additional observations from a re-analysis of the deposited data

How the results depend on the processing

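The number of retained promoters, 496, was 176 at a ratio of at least 0.9, 77 at 1, 136 at a mean of at least 60, 279 with totals without mitochondrial peaks, 5770 with RLE factors, 10473 with an equal total over peaks, 159 with the level between peaks subtracted, and between 393 and 904 with 1 library left out. The value of 904 came without normoxia replicate 1, and 454 of these were among the 496. With the full annotation, added after seeing the data, it was 595, and without windows that have near-identical copies, also added, 494.

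The log2 width difference at equal mean was 0.74. It was 0.86 at a ratio of at least 0.9, 1 at a ratio of 1, 1.16 at a mean of at least 60, 0.81 with a start site inside the peak, 0.81 without mitochondrial peaks, 0.56 with the level between peaks subtracted and between 0.47 and 0.77 with 1 library left out, and it turned to -0.26 at equal value per kb. The CpG ratio difference, -0.216, was -0.366 at a ratio of 0.9, -0.401 at 1, -0.320 without mitochondrial peaks, -0.365 with the level between peaks subtracted and between -0.232 and -0.104 with 1 library left out. Without normoxia replicate 1 it was smallest, at -0.104. The difference in the share of multi-gene promoters, -1.06 percentage points, had no stable sign, with 1.14 at a ratio of 1, 3.62 at a mean of 60 and 0.288 at equal value per kb, and -1.53 to -0.342 with 1 library left out. The difference from all strong promoters in libraries not used for the choice, 0.401 on the log2 scale, was 0.383, 0.384 and 0.388 for the other choices.

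The 31 members called higher in normoxia became 6 on values as deposited, 195 with an equal total over peaks, 80 with cyclic loess, 91 at an FDR under 0.05, 0 with eBayes without trend and robust estimation (73 members at an unadjusted p under 0.05), 16 with DESeq2 and between 0 and 34 with 1 library left out. The 0 came without hypoxia replicate 1 and without hypoxia replicate 2, with 137 and 70 members higher at an unadjusted p under 0.05. Calls of lower members were 0 in all of these settings. Over all 128055 peaks the main fit called 2262 higher and 5856 lower. These counts were 501 and 30729 on values as deposited, and 8757 and 1072 with an equal total over peaks. They were 1819 and 1681 with cyclic loess, and 6890 and 12390 at an FDR under 0.05. Without trend and robust estimation 0 of all peaks were called in either direction, so the 0 there says nothing about the members. Over all peaks edgeR called 3257 higher and 7296 lower, and DESeq2 121 and 3373.

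A fit with the replicate number as a block called 56 members higher, against 3912 higher and 8468 lower of all peaks. The numbers were not taken to pair the libraries, since the correlation of deviations of same-numbered libraries was 0.010 over all peaks and no label says that a number marks a shared day. The cause of these changes was not tested. With 49 to 138 reads in a typical or weak member, ratios close to 0.8 are not resolved at this depth.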
